A study of Mus musculus with 3 samples.

Results

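Vascular smooth muscle cells (VSMC) were described in single-cell transcriptomes of the mouse prefrontal cortex. A cell was taken as a VSMC when at least 2 of Acta2, Myh11 and Tagln had a corrected count of 2 or more, at most 1 of the endothelial genes Cldn5, Pecam1 and Cdh5 was above 0, and at most 1 of the fibroblast genes Dcn and Col1a1 was above 0. By this rule 140 of 14192 cells were VSMC. The brains were taken on postnatal day 6 from mice of both sexes that had inhaled the anesthetic sevoflurane once, at about 3%, on that day, and the 3 libraries form 1 exposed group with no unexposed one. Strain, genotype, length of exposure and number of animals per library were not given in the sources used here. The p-values rest on how differences between cell types vary among these libraries, pooled over the cell types of a fit. That spread may be technical. The labels describe frozen tissue and Trizol extraction, and how single cells were obtained is not given there. VSMC were therefore compared with other cells of the same libraries. The closest were 1005 pericytes, cells with at least 3 of Kcnj8, Vtn, Higd1b and Abcc9 above 0 that missed the VSMC rule. Fibroblasts, 77 in number, had Dcn and Col1a1 both at 2 or more and at most 1 of the endothelial genes above 0. Endothelial cells, 794 in number, had at least 2 of Cldn5, Pecam1 and Cdh5 at 2 or more. Both had fewer than 3 of the pericyte genes above 0, missed the VSMC rule and served as distant points of comparison.

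VSMC wrap arteries and arterioles and set their diameter by contraction. They and the pericytes of the capillaries are together called mural cells and share many genes, such as Rgs5 and Notch3. Contraction follows calcium entry, which lets calmodulin activate the myosin light chain kinase Mylk. Transcription of the contractile genes is driven by serum response factor (Srf) with its partner myocardin (Myocd) at a DNA element called the CArG box.

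VSMC were 31 of 4775 cells in library 1, 38 of 5134 in library 2 and 71 of 4283 in library 3. These are shares of 0.649% (95% exact Clopper-Pearson interval 0.442 to 0.920), 0.740% (0.524 to 1.01) and 1.66% (1.30 to 2.09), which average 1.02% ± 0.558 (SD, n = 3). The interval of library 3 lies above those of libraries 1 and 2. Of VSMC and pericytes together, VSMC made up 9.34%, 10.1% and 16.2%, so library 3 was highest on this scale as well. The intervals cover counting error only. Per library, VSMC had medians of 3045, 2855 and 3062 detected genes, against 2588, 2428 and 2601 in pericytes. Their median corrected counts per cell were 6672, 6477 and 6682, against 5817, 5423 and 5834 in pericytes, so pericytes were the shallower cells in every library. Across the whole series the totals per library were 27887930, 29581504 and 24612481 corrected counts, in 4422 to 8135 per cell. Barcodes found in more than 1 library numbered 90, 1 VSMC carried such a barcode, and no barcode was a VSMC in more than 1 library. Scrublet, which scores cells against simulated doublets, called 120, 78 and 89 doublets in libraries 1, 2 and 3, none of them a VSMC.

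The genes that chose the cells are given as a description. Acta2, the smooth muscle actin, averaged 4863, 5891 and 7423 CPM (corrected counts per 1e6 of a cell, averaged over cells) in VSMC of libraries 1, 2 and 3, against 70.9, 27.9 and 75.1 CPM in pericytes. Tagln, an actin-binding protein also called transgelin, had 1666, 2600 and 3098 CPM in VSMC, against 27.4, 17.2 and 23.8 CPM in pericytes. Myh11, the smooth muscle myosin heavy chain, had 396, 233 and 478 CPM in VSMC, against 7.90, 4.11 and 11.8 CPM in pericytes. In 1774 microglia, which should lack the gene, Acta2 averaged 1.20 CPM. Acta2 was above 0 in 100% of VSMC by the rule's working, in 7.31%, 4.45% and 5.45% of pericytes and in 0.448%, 0.306% and 1.19% of microglia. The Acta2 gene lies on chromosome 19, 34241090 to 34255590, minus strand (GRCm38), Myh11 on chromosome 16, 14194535 to 14291372, minus strand, and Tagln on chromosome 9, 45929619 to 45936058, minus strand.

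VSMC also carried the pericyte markers, at lower levels than pericytes. Vtn, the matrix protein vitronectin, had 4952, 4994 and 4217 CPM in VSMC, against 6861, 6988 and 7392 CPM in pericytes. It was also high in fibroblasts, at 8533, 5930 and 2486 CPM. Kcnj8, the pore of the vascular ATP-sensitive potassium channel, had 372, 340 and 246 CPM in VSMC, against 1839, 1846 and 1950 CPM in pericytes. Abcc9, the regulatory subunit of that channel, had 122, 101 and 64.6 CPM in VSMC, against 807, 757 and 783 CPM in pericytes. Pericytes were defined by these genes, so no test was made. The defining fibroblast gene Col1a1 was at 0 in VSMC of all 3 libraries. The endothelial gene Cldn5, a tight junction protein, was at 29.3, 30.5 and 17.1 CPM in VSMC, against 1884, 1149 and 179 CPM in pericytes, whose rule did not bar endothelial genes. In endothelial cells Cldn5 averaged 11395 CPM.

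**Figure D1:**
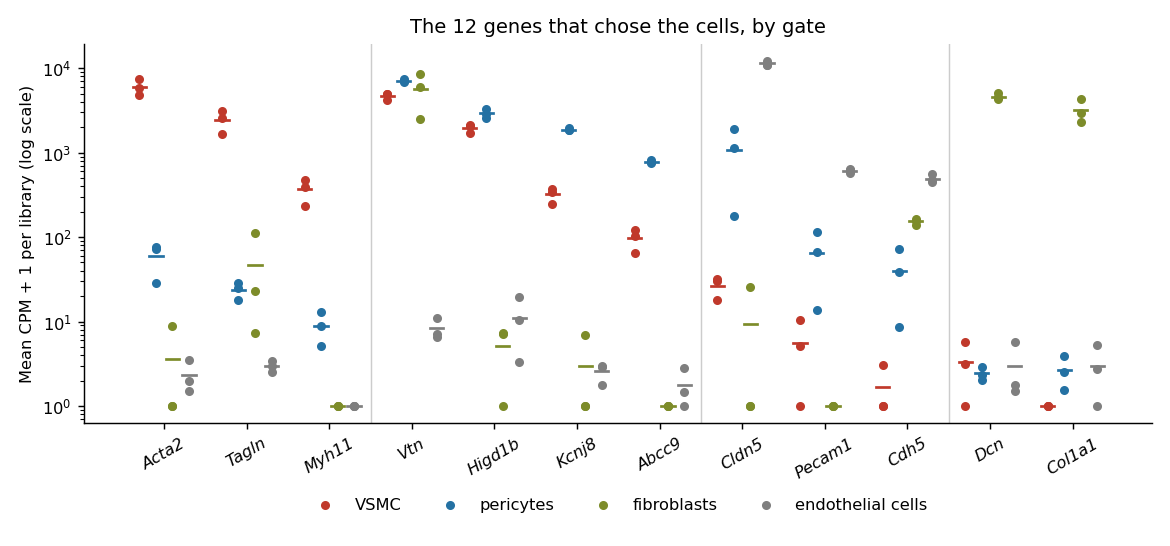
Levels of the 12 genes that chose the cells (mean CPM + 1 on a log axis, 1 point per library, bars for means of 3 libraries) in VSMC, pericytes, fibroblasts and endothelial cells. VSMC stand above the other gates for Acta2, Tagln and Myh11, and below pericytes for Kcnj8 and Abcc9.

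The rule kept cells of very different Acta2 level. Acta2 ran from 3 to 106 corrected counts in VSMC of library 1 (median 22), from 2 to 115 in library 2 (median 24) and from 2 to 210 in library 3 (median 28). All 3 markers reached the minimum in 67 VSMC, whose median Acta2 was 61 and median Myh11 4. The other 73 VSMC had exactly 2 markers at the minimum, a median Acta2 of 12 and a median Myh11 of 0. Just outside the rule lay 13 cells with 1 marker at the minimum and another at 1, whose median Acta2 was 4 and of which 9 counted as pericytes. A further 8 cells met the marker minimum and were left out for having at least 2 endothelial genes above 0.

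In the comparison with pericytes, 310 of 9428 genes tested were higher in VSMC (3.29%) and 422 were lower (4.48%), 7.76% in either direction, by limma with Benjamini-Hochberg adjustment at 0.05. The 12 genes that chose the cells were not among them. The median log2 fold of all tested genes was 0.01. Fold changes are on the scale of log2(CPM + 10), which understates the change of low genes. A gene high only in VSMC passed the minimum of 10 CPM, averaged over the gates, through VSMC, so counts of list members that follow are read beside those percentages and not as shares of all genes. Exons of Htr1b, Notch3, Pde3a, Pdgfa, Nrip2, Ramp2, Art3 and Mcam overlap those of another gene that has values here. Those of Des, Mylk, Kcnk3, Lox, Itga7, Atp2b4, Foxf2, Tbx18, Dll4, Edn1, Tgfb2, Gucy1a1 and Ctla2a overlap annotated genes without values here. Ramp2, Nrip2, Atp2b4, Gucy1a1 and Ctla2a overlap a gene on the same strand, and the others only genes on the opposite strand. Whether counting used strand is not given. If it did, only the genes with an overlap on the same strand may share reads, and otherwise all of them may. Only genes named for a large fold were checked. All 3 comparisons between cell types share the VSMC of the same 3 libraries.

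The contractile and cytoskeletal genes were the list with the most members higher in VSMC. Of 30 genes, 25 were tested, 17 were higher in VSMC, 1 was lower, and the median log2 fold was 1.01. The summed level of all 30 was 23697, 25984 and 28104 CPM in VSMC, against 11318, 11420 and 12483 CPM in pericytes, 3940 to 4712 CPM in fibroblasts and 5411 to 5472 CPM in endothelial cells. VSMC were thus above the other gates in each library, with pericytes next.

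Tpm2, a tropomyosin that lies along actin filaments, had 1122, 1333 and 1851 CPM in VSMC, against 144, 126 and 197 CPM in pericytes (log2 fold 3.12 ± 0.27 SE, limma adjusted p = 3.05e-05). Tpm1, the other tropomyosin of smooth muscle, had 1785, 1828 and 2223 CPM in VSMC, against 394, 358 and 416 CPM in pericytes (log2 fold 2.29 ± 0.15 SE, limma adjusted p = 3.58e-06). Lmod1, a leiomodin that nucleates actin filaments, had 53.9, 84.8 and 116 CPM in VSMC, against 5.73, 5.75 and 8.79 CPM in pericytes (log2 fold 2.45, limma adjusted p = 0.00102). The groups did not overlap for any of these. Actg2, the other smooth muscle actin, had 39.2, 204 and 204 CPM in VSMC, against 0, 0 and 2.20 CPM in pericytes (log2 fold 3.62 ± 0.41 SE, limma adjusted p = 0.000199). It came from 33 of the 140 VSMC (4, 10 and 19 per library), and because its coding sequence is close to that of Acta2, reads may have been split between them. Crip1, a small LIM domain protein, had 4202, 4436 and 5136 CPM in VSMC, against 330, 331 and 478 CPM in pericytes (log2 fold 3.58 ± 0.18 SE, limma adjusted p = 3.71e-07). Every VSMC library was above every pericyte library for Crip1 by a wide margin.

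The myosin light chain gene Myl9 and the kinase gene Mylk were already high in pericytes and differed less. Myl9, the regulatory light chain that Mylk phosphorylates, had 5113, 5788 and 5897 CPM in VSMC, against 2237, 2308 and 2669 CPM in pericytes (log2 fold 1.22 ± 0.25 SE, limma adjusted p = 0.0101). Mylk had 649, 690 and 817 CPM in VSMC, against 322, 348 and 385 CPM in pericytes (log2 fold 1.01 ± 0.15 SE, limma adjusted p = 0.000994). Des, the intermediate filament desmin, had 501, 462 and 460 CPM in VSMC, against 175, 179 and 191 CPM in pericytes (log2 fold 1.34 ± 0.21 SE, limma adjusted p = 0.00161). None of these groups overlapped. Csrp1, a LIM protein of the cytoskeleton, had a log2 fold of 2.29, and Actn1, an alpha-actinin that crosslinks actin, one of 1.85; both passed the test.

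Other genes of the list did not follow. Svil, the actin-binding protein supervillin, was lower, with 18.8, 34.3 and 29.96 CPM in VSMC, against 106, 95.5 and 111 CPM in pericytes (log2 fold -1.62 ± 0.20 SE, limma adjusted p = 0.000293). Cald1, the thin filament protein caldesmon, had 4291, 4442 and 3981 CPM in VSMC, against 3257, 3386 and 3877 CPM in pericytes, and the difference did not pass (log2 fold 0.28, limma adjusted p = 0.293). Smtn, or smoothelin, had overlapping groups at 44.4, 24.5 and 34.2 CPM in VSMC, against 54.0, 47.0 and 31.1 CPM in pericytes. Cnn1, or calponin, a marker of mature contractile cells, was under the minimum for the test, with 5.19, 4.63 and 76.0 CPM in VSMC, against 1.02, 0 and 0 CPM in pericytes. It was above 0 in 8 VSMC, and 3 of them held 30 of its 36 corrected counts. Pdlim3, a PDZ and LIM protein, was also under the minimum, with 15.1, 30.3 and 40.6 CPM in VSMC, against 0.452, 0.532 and 0 CPM in pericytes.

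Of the 18 calls of this list, 4 were lost without library 1 (Des, Myl9, Flna and Lpp, limma adjusted p 0.061 to 0.179). Without library 2, 4 were lost (Des, Flna, Pdlim7 and Lpp, limma adjusted p 0.0505 to 0.32), and without library 3, 2 were lost (Flna and Lpp, limma adjusted p 0.202 to 0.219). Over 17 alternative settings, 13 to 20 members were higher and 1 was lower.

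The promoters of the contractile genes were searched for the CArG box on both strands, in the RefSeq window of 250 bases before to 50 after each gene's start (GRCm38.p6). A box matching the full motif was found in 5 of the 25 contractile genes with an entry (20%), against 488 of all 27025 genes with an entry (1.81%), a gene with several starts counting once. Among genes higher in VSMC it was found in 11 of 224 (4.91%), among genes lower in VSMC in 3 of 308 (0.974%), and among all tested genes in 120 of 7427 (1.62%). The 5 contractile genes were Myl9 and Myl6, both higher in VSMC, Vcl and Fermt2, which were not called, and Ldb3, which was under the minimum for the test. In a fit of VSMC and pericytes alone Vcl was called higher (log2 fold 0.51, limma adjusted p = 0.00465). A box with 1 letter off was allowed in a looser search, which matched 8 of the 25 (32.0%) and 3050 of all genes with an entry (11.3%). Acta2 had no full box in the window and 2 with 1 letter off. Myh11 and Tagln are named only. A match is a description of letters and not a site of binding.

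The 30 bases around the box are shown for Acta2, because it defines the cells, and for the 5 contractile genes with a full box. Capitals mark the box, which has 1 letter off in Acta2, where the first of its 2 is given, and is full in the others. The windows are chr19:34255438-34255467 on the minus strand (Acta2), chr2:156775293-156775322 on the plus strand (Myl9), chr10:128493040-128493069 on the minus strand (Myl6), chr14:20929161-20929190 on the plus strand (Vcl), chr14:34588697-34588726 on the minus strand (Ldb3) and chr14:45530250-45530279 on the minus strand (Fermt2).
Acta2: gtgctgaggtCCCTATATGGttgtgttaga
Myl9: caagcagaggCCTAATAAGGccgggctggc
Myl6: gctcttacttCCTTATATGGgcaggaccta
Vcl: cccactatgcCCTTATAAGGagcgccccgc
Ldb3: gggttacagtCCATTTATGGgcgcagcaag
Fermt2: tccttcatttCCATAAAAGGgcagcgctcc
Counted from the RefSeq start, the box shown begins at base -84 in Acta2, -161 in Myl9, -50 in Myl6, -227 in Vcl, -35 in Ldb3 and -204 in Fermt2. The gene coordinates given for Acta2, Myh11 and Tagln are those of GENCODE M21, whose starts can lie further upstream. The RefSeq start lies 217 bases inside the GENCODE gene in Acta2, 44 in Myl9 and 1136 in Myl6, which has another RefSeq start, so that the Acta2 and Myl6 boxes lie within the GENCODE genes.

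Among 21 tested regulators of smooth muscle transcription, of 25 listed, 4 were higher in VSMC and 1 was lower (median log2 fold 0.38). Prrx1, a homeobox factor of mesenchymal cells, had 258, 284 and 309 CPM in VSMC, against 93.2, 103 and 100 CPM in pericytes (log2 fold 1.43 ± 0.17 SE, limma adjusted p = 0.0003). Mef2c, a factor of muscle gene transcription, had 742, 747 and 828 CPM in VSMC, against 385, 408 and 392.4 CPM in pericytes (log2 fold 0.95 ± 0.20 SE, limma adjusted p = 0.0116). Both were higher in every VSMC library than in any pericyte library. The T-box factors Tbx2 (log2 fold 0.85) and Tbx18 (log2 fold 0.77) also passed. Foxf2, a forkhead factor of brain pericytes, was lower, with 80.9, 94.6 and 94.3 CPM in VSMC, against 223, 211 and 180 CPM in pericytes (log2 fold -1.10 ± 0.14 SE, limma adjusted p = 0.000369). Srf itself had 34.0, 25.2 and 23.5 CPM in VSMC, against 18.7, 12.9 and 17.8 CPM in pericytes, and did not pass (limma adjusted p = 0.421). Myocd was too low for the test. It was above 0 in 2, 2 and 4 VSMC of libraries 1, 2 and 3 and in 0 of 1005 pericytes, which allows a share of up to 0.299% of cells with a count. It was also at 0 in the 1774 microglia. Without library 1, Mef2c, Tbx18 and Tbx2 were lost (limma adjusted p 0.195 to 0.37), without library 2, Tbx18 and Tbx2 (0.147 to 0.233), and without library 3, Tbx2 (0.0749).

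Genes of calcium and potassium handling were next. Of 29 listed, 21 were tested, 7 were higher in VSMC and 2 were lower (median log2 fold 0.49). Atp2b4, a calcium pump of the cell membrane, had 82.7, 69.8 and 81.3 CPM in VSMC, against 11.6, 12.5 and 16.1 CPM in pericytes (log2 fold 1.91 ± 0.26 SE, limma adjusted p = 0.000735). Kcnk3, the tandem pore potassium channel TASK-1, had 43.5, 21.3 and 50.4 CPM in VSMC, against 2.67, 2.47 and 7.99 CPM in pericytes (log2 fold 1.72 ± 0.27 SE, limma adjusted p = 0.00186). Neither pair of groups overlapped. Volatile anesthetics are known to open TASK channels, which is background and not measured here.

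Some genes of voltage-gated entry and of the calcium stores were also higher in VSMC, and the store channel gene Itpr2 was lower. The calcium channel subunit genes Cacnb2 and Cacna2d1 were tested and not called. Cacna1c, the pore of the L-type calcium channel, had 38.1, 62.1 and 63.8 CPM in VSMC, against 24.7, 15.8 and 22.4 CPM in pericytes (log2 fold 1.05, limma adjusted p = 0.0254). Its beta subunit Cacnb3 had 46.5, 46.7 and 37.9 CPM in VSMC, against 10.1, 9.04 and 12.1 CPM in pericytes (log2 fold 1.40, limma adjusted p = 0.00253). The groups of both subunits stayed apart. Atp2a2, the calcium pump of the sarcoplasmic reticulum, was higher by a log2 fold of 1.27, Casq2, a calcium buffer of that store, by 1.20, and Ano1, a calcium-activated chloride channel, by 1.05. Itpr2, a release channel gated by inositol trisphosphate, was lower, with 79.98, 84.1 and 64.2 CPM in VSMC, against 160, 160 and 171 CPM in pericytes (log2 fold -1.02, limma adjusted p = 0.00354). The large-conductance potassium channel had its pore gene Kcnma1 at 0 in VSMC of all 3 libraries, against 1.55, 1.32 and 1.29 CPM in pericytes. With 140 VSMC, a 0 cannot be told apart from levels this low. The channel's subunit gene Kcnmb1 had 112, 82.1 and 106 CPM in VSMC, against 65.5, 66.3 and 72.1 CPM in pericytes, and did not pass. Of the called genes named for this list, all but Atp2b4 and Atp2a2 lost their call without library 1 (limma adjusted p 0.0523 to 0.157), all but Atp2b4 and Kcnk3 without library 2 (0.0571 to 0.283), and without library 3, Cacna1c (0.152), while Kcnk3 then missed the minimum level.

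Receptors and nitric oxide targets that set vessel tone were mixed, with 3 of 27 tested genes higher in VSMC, 5 lower and a median log2 fold of -0.17. The list held 38 genes. Htr1b, the serotonin receptor at which triptans act, had 31.1, 60.4 and 69.5 CPM in VSMC, against 0, 0.480 and 2.47 CPM in pericytes (log2 fold 2.49 ± 0.30 SE, limma adjusted p = 0.0003). It was above 0 in 42 of the 140 VSMC. Pde3a, a phosphodiesterase of cyclic AMP, had 238, 229 and 266 CPM in VSMC, against 57.5, 56.5 and 77.0 CPM in pericytes (log2 fold 1.796 ± 0.19 SE, limma adjusted p = 0.000134). Pde1a, a calmodulin-dependent phosphodiesterase, had 92.2, 123 and 130 CPM in VSMC, against 25.0, 26.4 and 31.1 CPM in pericytes (log2 fold 1.73 ± 0.28 SE, limma adjusted p = 0.00217). These 3 did not overlap between the groups.

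The thromboxane receptor Tbxa2r was lower, with 191, 250 and 195 CPM in VSMC, against 422, 423 and 439 CPM in pericytes (log2 fold -0.99, limma adjusted p = 0.0197). Rgs4, which shortens signaling of G protein-coupled receptors, had 312, 331 and 253 CPM in VSMC, against 662, 634 and 628 CPM in pericytes (log2 fold -1.08, limma adjusted p = 0.00123). The adenosine receptor Adora2a and the phosphodiesterase Pde4d were lower by log2 folds of -0.85 and -0.70. Ramp2, a partner of the adrenomedullin receptor and also an endothelial gene, had 0, 12.01 and 10.5 CPM in VSMC, against 319, 203 and 59.7 CPM in pericytes (log2 fold -3.36 ± 0.43 SE, limma adjusted p = 0.000443). When pericytes were held to the same exclusions as VSMC, Ramp2 was at 35.8, 38.5 and 36.5 CPM in them (log2 fold -1.51, limma adjusted p = 0.000608). The endothelin receptor Ednra was at 173, 176 and 160 CPM in VSMC, against 283, 261 and 313 CPM in pericytes. It did not pass in the fit of all cell types (limma adjusted p = 0.0619). In a fit of VSMC and pericytes alone Ednra was called lower (log2 fold -0.72, limma adjusted p = 0.00096). In the fit of all cell types the nitric oxide receptor subunits Gucy1a1 and Gucy1b1 did not pass either, with log2 folds of -0.46 and -0.11. Without library 1, Tbxa2r, Adora2a and Pde4d were lost (limma adjusted p 0.167 to 0.376), without library 2, Tbxa2r, Pde1a and Pde4d (0.07 to 0.122), and without library 3, Tbxa2r, Adora2a and Pde4d (0.0558 to 0.205).

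The cell matrix list had 40 tested genes of 41, with 7 higher in VSMC, 4 lower and a median log2 fold of 0.25. Lox, the enzyme that crosslinks collagen and elastin, had 67.0, 58.0 and 63.6 CPM in VSMC, against 0.597, 1.58 and 1.23 CPM in pericytes (log2 fold 2.71 ± 0.36 SE, limma adjusted p = 0.00058). It was above 0 in 34 VSMC. Olfml2b, an olfactomedin-like secreted protein, had 86.9, 105 and 129 CPM in VSMC, against 3.34, 4.13 and 12.3 CPM in pericytes (log2 fold 2.84 ± 0.25 SE, limma adjusted p = 3.46e-05). Itga7, a laminin-binding integrin of muscle, had 179, 192 and 281 CPM in VSMC, against 34.1, 35.2 and 43.9 CPM in pericytes (log2 fold 2.23 ± 0.22 SE, limma adjusted p = 6.62e-05). All 3 were well separated. Timp3, an inhibitor of metalloproteinases, was higher by a log2 fold of 2.10, and the collagen genes Col18a1 and Col1a2 by 1.497 and 1.19. Itga8, a fibronectin-binding integrin, was lower, with 4.59, 0 and 4.35 CPM in VSMC, against 26.8, 29.6 and 32.1 CPM in pericytes (log2 fold -1.62, limma adjusted p = 0.00106). The basement membrane genes Hspg2 and Nid1 were lower by log2 folds of -1.46 and -0.75, and Sparcl1, a matricellular gene that astrocytes also express, by -1.28. Without library 1, Col1a2, Col18a1, Nid1, Sparc, Sparcl1 and Lox were lost (limma adjusted p 0.0537 to 0.179), without library 2, Nid1, Sparc and Sparcl1 (0.0695 to 0.227), and without library 3, Sparc (0.214).

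The call of Mgp depended on which cell types entered the fit. Mgp, the calcification inhibitor matrix Gla protein, had 3149, 3520 and 2888 CPM in VSMC, against 795, 714 and 709 CPM in pericytes, with no overlap. It did not pass in the fit of 4 gates (log2 fold 2.09 ± 1.26 SE, limma adjusted p = 0.411), where its levels in fibroblasts were 363, 0 and 4448 CPM. In a fit of VSMC and pericytes alone the SE was 0.086 and the limma adjusted p 1.46e-09. Mgp was at 0 in 11 VSMC. Eln, the elastin gene of the arterial wall, had 4.83, 16.1 and 384 CPM in VSMC, against 3.40, 3.10 and 2.54 CPM in pericytes (log2 fold 2.04, limma adjusted p = 0.246). In the fit of VSMC and pericytes alone Eln passed (limma adjusted p = 0.0388). Its high value stood in library 3, where 14 of its 17 positive VSMC were found. A total of 158 of its 179 corrected counts were in 3 cells, the highest with 85. Of the 8 VSMC with Eln at 2 or more, 4 also had Cnn1 above 0, all 4 in library 3.

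The mural genes outside the rule had a median log2 fold of -0.46, with 3 of 26 tested genes higher in VSMC and 5 lower, of 28 listed. Pericytes were chosen for holding at least 3 pericyte markers, so lower mural genes in VSMC may follow in part from that choice. Atp13a5, a transporter known as a brain pericyte marker, had 183, 237 and 184 CPM in VSMC, against 592, 592 and 703 CPM in pericytes (log2 fold -1.60 ± 0.30 SE, limma adjusted p = 0.00542). Art3, a member of the ADP-ribosyltransferase family, had 408, 519 and 299 CPM in VSMC, against 889, 937 and 971 CPM in pericytes (log2 fold -1.20 ± 0.21 SE, limma adjusted p = 0.00313). Pdgfrb, the receptor that recruits mural cells, had 409, 513 and 356 CPM in VSMC, against 736, 776 and 865 CPM in pericytes (log2 fold -0.89, limma adjusted p = 0.0164). All of these were lower in every VSMC library. Rgs5, a brake on G protein signaling, was very high in both, with 18532, 18246 and 17867 CPM in VSMC, against 12635, 12624 and 15308 CPM in pericytes. It did not pass in the fit of 4 gates (log2 fold 0.44 ± 0.43 SE, limma adjusted p = 0.66), and passed in that of VSMC and pericytes alone (limma adjusted p = 0.00075). Gja4, the arterial gap junction protein connexin 37, was alike in this, with a log2 fold of 0.92 and a limma adjusted p of 0.0958 against 5.81e-06. Of the 8 calls, 7 were lost without library 1 (limma adjusted p 0.0877 to 0.37), 6 without library 2 (0.0685 to 0.233) and 5 without library 3 (0.0564 to 0.113), and each of the 8 was lost without at least 1 library.

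In the Notch pathway, through which endothelial ligands shape arterial mural cells, 2 of 16 tested genes were higher and 1 was lower (17 listed). The mural receptor Notch3 had 400, 337.5 and 345 CPM in VSMC, against 212, 180 and 241 CPM in pericytes (log2 fold 0.75 ± 0.18 SE, limma adjusted p = 0.0252). The ligand gene Jag1 had a log2 fold of 0.88 and the endothelial ligand gene Dll4 one of -1.23, and with pericytes held to the VSMC exclusions both lost their calls (limma adjusted p = 0.0511 and 0.294). None of these calls held with 2 libraries, except that of Dll4 without library 3 (limma adjusted p 0.0564 to 0.346 in the lost ones). The Notch target Heyl had overlapping groups, at 252, 289 and 309 CPM in VSMC, against 304.3, 274 and 305 CPM in pericytes. Hey2, another target, had 140, 88.4 and 94.7 CPM in VSMC, against 51.1, 49.7 and 58.8 CPM in pericytes. It did not pass in the fit of all cell types (limma adjusted p = 0.0652). In the fit of VSMC and pericytes alone Hey2 was called higher (log2 fold 0.87, limma adjusted p = 0.00371).

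The growth factor gene with the clearest difference was Pdgfa, a platelet-derived growth factor, with 262, 300 and 298 CPM in VSMC, against 27.3, 35.8 and 37.3 CPM in pericytes (log2 fold 2.78 ± 0.18 SE, limma adjusted p = 2.62e-06). Of 19 tested genes of PDGF signaling and vessel growth (20 listed), it and Angpt2, an angiopoietin (log2 fold 1.78), were higher, and Igfbp4, Cxcl12 and Edn1 were lower. Igfbp4, an insulin-like growth factor binding protein, had 58.5, 44.8 and 81.4 CPM in VSMC, against 273, 258 and 224 CPM in pericytes (log2 fold -1.90, limma adjusted p = 7.6e-05). Edn1, the endothelin gene, had 9.54, 0 and 2.08 CPM in VSMC, against 87.5, 63.0 and 9.85 CPM in pericytes, and with pericytes held to the VSMC exclusions its log2 fold was 0.20 (limma adjusted p = 0.792). Without library 1 or library 2, Edn1 and Cxcl12 were lost (limma adjusted p 0.222 to 0.23 and 0.174 to 0.328). Of 28 tested genes of transforming growth factor beta and bone morphogenetic protein signaling, 2 were higher and 4 lower (30 listed). Ctgf, a matricellular target gene, had 79.3, 122 and 151 CPM in VSMC, against 54.9, 43.7 and 18.4 CPM in pericytes (log2 fold 1.42, limma adjusted p = 0.00983). The ligand gene Tgfb2 was higher by a log2 fold of 1.05 and Tgfb1 lower by one of -1.09, and the lower calls Skil, Tsc22d1 and Eng had log2 folds of -1.16, -1.32 and -0.93. With pericytes held to the VSMC exclusions, Skil and Tsc22d1 lost their calls (log2 folds -0.68 and -0.56, limma adjusted p = 0.114 and 0.19), and 2 genes of the list were lower. Of these 6, 5 were lost without library 1, 4 without library 2 and 2 without library 3 (limma adjusted p 0.0523 to 0.34), and the one that held without library 1 was Ctgf.

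Outside the lists, the gene with the largest positive log2 fold was Nrip2, a nuclear receptor interacting protein, with 226, 195 and 321 CPM in VSMC, against 4.02, 5.04 and 8.94 CPM in pericytes (log2 fold 3.99 ± 0.27 SE, limma adjusted p = 4.2e-06). Gsn, the actin-severing protein gelsolin, had 206, 250 and 299 CPM in VSMC, against 15.7, 8.96 and 14.8 CPM in pericytes (log2 fold 3.49, limma adjusted p = 1.33e-06). Fxyd1, the phospholemman that regulates the sodium pump, had a log2 fold of 3.43, the polarity protein gene Insc one of 3.31, Anxa1, an annexin, one of 3.19, Fmod, the matrix proteoglycan fibromodulin, one of 3.14 and Tinagl1, a matrix protein, one of 3.02. All 7 were higher in each VSMC library than in any pericyte library and passed without any 1 library. The largest negative log2 fold was that of Itih5, a member of the inter-alpha-trypsin inhibitor heavy chain family, with 19.2, 8.47 and 10.7 CPM in VSMC, against 356, 310 and 329 CPM in pericytes (log2 fold -3.93 ± 0.17 SE, limma adjusted p = 1.38e-07). Slc22a8, an organic anion transporter, had 9.60, 42.3 and 23.3 CPM in VSMC, against 391, 359 and 274 CPM in pericytes (log2 fold -3.42 ± 0.26 SE, limma adjusted p = 1.3e-05). Both kept their call with pericytes held to the VSMC exclusions (log2 folds -4.02 and -3.19). The endothelial genes Ctla2a and Pglyrp1 were lower by log2 folds of -3.78 and -3.57 and lost their calls there (limma adjusted p = 0.137 and 0.633), and Ctla2a was also lost without library 2 (0.0515).

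**Figure D2:**
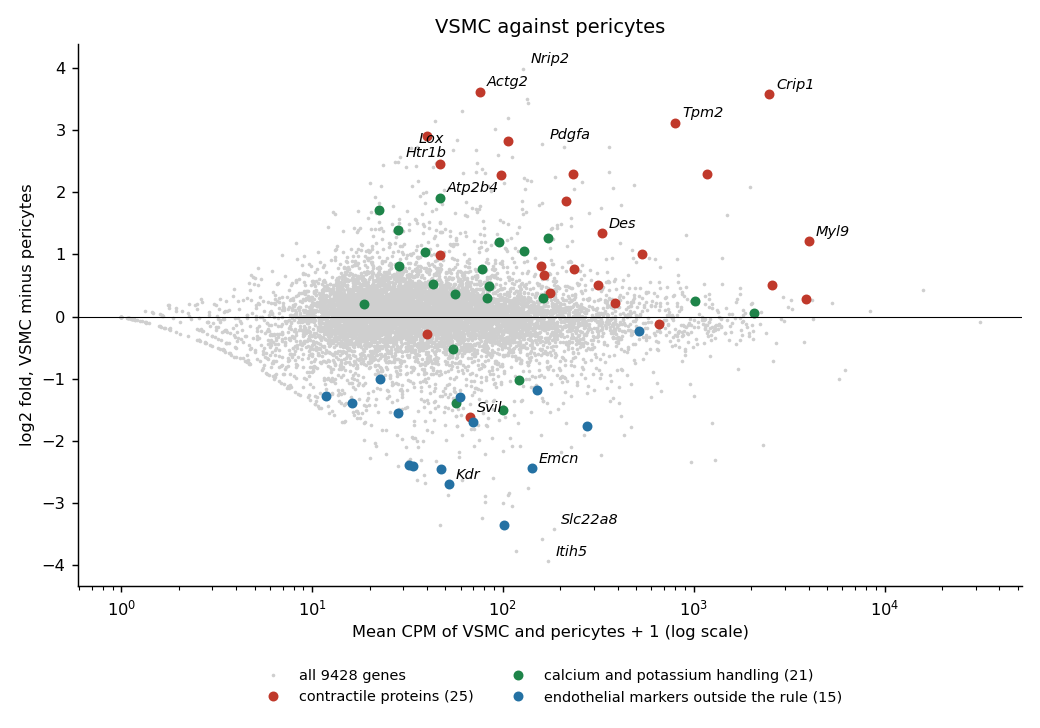
Log2 fold (VSMC minus pericytes) of all 9428 tested genes against their mean CPM + 1 over VSMC and pericytes (log axis), with contractile genes in red, calcium and potassium genes in green and endothelial markers in blue. Most contractile genes lie above 0 over the whole range of levels, and most endothelial markers lie below 0.

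Endothelial RNA in the pericyte gate moved with the genes lower in VSMC. Of 15 endothelial markers outside the rule, all tested, 11 were lower in VSMC and none was higher, with a median log2 fold of -1.70. Their summed level was 725, 861 and 790 CPM in VSMC, against 3334, 2353 and 1201 CPM in pericytes and 16378, 16388 and 18381 CPM in endothelial cells. When pericytes were held to the VSMC exclusions, which left 893 of them, 2 of the 15 were lower (Emcn and Ramp2) and the median log2 fold was -0.25. Over all genes, 314 were then higher and 314 lower. Without library 1, 9 of the 11 calls were lost (limma adjusted p 0.0755 to 0.251), and without library 2, 8 (0.111 to 0.37). Hemoglobin and other erythroid RNA summed to 369, 617 and 6449 CPM in VSMC, against 10715, 10638 and 1254 CPM in pericytes. In library 3, 1 VSMC held 1276 corrected counts of the hemoglobin gene Hbb-bs, and no other VSMC of any library held more than 10. The share of pericytes with hemoglobin genes at 1000 CPM or more ran the other way from their sums, at 15.0%, 27.9% and 47.7%. The Hbb-bs counts of VSMC in library 3 thus lay mostly in 1 cell. How the pericyte sums were spread over cells is not given. Of the 5 tested erythroid genes, 0 were called (3 had an unadjusted p under 0.05 in limma). Without library 3 all 5 were called lower in VSMC and their median log2 fold was -4.18, against -2.06 with it, and 4 were called lower with all 3 smooth muscle markers required. For VSMC against pericytes, 661 genes were called when cells with hemoglobin genes at 1000 CPM or more were left out and 697 when only cells with 2500 to 4000 detected genes were used, against 732 with all cells. Fibroblast markers outside the rule summed to 379 to 600 CPM in VSMC, against 395 to 461 CPM in pericytes and 11952 to 18592 CPM in fibroblasts. Of 14 tested fibroblast markers, Serping1 was higher in VSMC (log2 fold 2.84 ± 0.18 SE) and Apod lower (log2 fold -2.98 ± 0.18 SE). The microglia, neuron and oligodendrocyte lists had 0 calls among 8, 3 and 6 tested genes (0, 2 and 3 with an unadjusted p under 0.05 in limma), and of 7 astrocyte markers Sparcl1 was lower.

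None of 20 genes of the cell cycle was called by limma, 4 had an unadjusted p under 0.05, and 18 VSMC (7, 5 and 6 per library) had Mki67 or Top2a at 2 or more. Mki67, the proliferation marker, had 81.0, 84.4 and 55.8 CPM in VSMC, against 124, 86.6 and 90.4 CPM in pericytes (limma adjusted p = 0.556). Of 25 tested immediate early genes (28 listed), Myc and Gadd45b were higher in VSMC and Btg1, Jund and Sik1 lower, and each of these 5 was lost without at least 1 library (limma adjusted p 0.0538 to 0.46 in those fits). With only VSMC and pericytes fitted, 4 immediate early genes were higher and 8 lower of 23 tested, and 1 of the 20 cell cycle genes was higher and 5 lower. With pericytes held to the VSMC exclusions, Sik1 and Myc lost their calls (limma adjusted p = 0.106 and 0.0526). Fos, a gene that responds to dissociation and to activity, had overlapping groups at 209, 63.3 and 112 CPM in VSMC, against 77.8, 74.4 and 34.4 CPM in pericytes.

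Against fibroblasts, 1589 of the 9428 genes were higher in VSMC (16.9%) and 1214 lower (12.9%), 29.7% in either direction, by limma with Benjamini-Hochberg adjustment. VSMC were higher for 22 of 25 contractile genes and lower for 1. They were higher for 16 of 21 genes of calcium and potassium handling and lower for none, and higher for 21 of 26 mural genes outside the rule and lower for 3. Fibroblasts had to hold fewer than 3 pericyte markers, so the mural count may follow in part from how the cells were chosen. Rgs5 had 18532, 18246 and 17867 CPM in VSMC, against 0, 6.497 and 25.0 CPM in fibroblasts (log2 fold 9.99 ± 0.43 SE, limma adjusted p = 6.93e-09). Des had a log2 fold of 5.36 and Mylk one of 4.45. Casq2, Kcnmb1 and the adhesion molecule gene Mcam were listed at 0 in fibroblasts of all 3 libraries, against 114 to 155, 82.1 to 112 and 492 to 549 CPM in VSMC. The matrix list ran both ways, with 13 of 40 genes higher in VSMC and 16 lower. Lum, the fibroblast proteoglycan lumican, was listed at 0 in VSMC of all 3 libraries, against 1641, 2380 and 1190 CPM in fibroblasts. Cxcl12, a chemokine, had 14.6, 17.4 and 48.6 CPM in VSMC, against 3553, 3418 and 2763 CPM in fibroblasts (log2 fold -6.57 ± 0.26 SE, limma adjusted p = 3.61e-09). Fibroblast markers outside the rule were lower in 13 of 14, which may also follow in part from choosing fibroblasts on fibroblast genes. Of the 77 fibroblasts 30, 24 and 23 came from libraries 1, 2 and 3, which limits the precision of their levels.

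Against endothelial cells, 2270 genes were higher in VSMC (24.1%) and 1485 lower (15.8%), 39.8% in either direction. VSMC were higher for 21 of 25 contractile genes and lower for 3, and higher for 25 of 26 mural genes outside the rule and lower for none. Endothelial cells had to hold fewer than 3 pericyte markers, so the mural count may follow in part from how the cells were chosen. Myl9 had 5113, 5788 and 5897 CPM in VSMC, against 16.04, 14.6 and 6.52 CPM in endothelial cells (log2 fold 7.99 ± 0.25 SE, limma adjusted p = 4.21e-10). Notch3 had 400, 337.5 and 345 CPM in VSMC, against 3.65, 1.48 and 0.741 CPM in endothelial cells (log2 fold 4.96 ± 0.18 SE, limma adjusted p = 1.18e-09). Of 27 tone receptors and nitric oxide targets, 18 were higher in VSMC and 4 lower (Ramp2, Rgs2, Npr1 and Calcrl). Gucy1a1, the alpha subunit of the nitric oxide receptor, had 578, 748 and 678 CPM in VSMC, against 3.19, 1.46 and 0.784 CPM in endothelial cells (log2 fold 5.84). Klf2, a flow-responsive factor of endothelium, had 140, 79.7 and 72.7 CPM in VSMC, against 3198, 3440 and 3951 CPM in endothelial cells (log2 fold -5.09 ± 0.67 SE, limma adjusted p = 5.1e-05). Immediate early genes were lower in VSMC in 17 of 25 and higher in 2, and genes of transforming growth factor beta and bone morphogenetic protein signaling lower in 16 of 28 and higher in 4. The 5 tested erythroid genes were all lower in VSMC, and without library 1 or 2, 4 and 5 of them were lost (limma adjusted p 0.0646 to 0.0925 and 0.0733 to 0.102).

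VSMC varied among themselves in how many pericyte markers they held. Of Kcnj8, Vtn, Higd1b and Abcc9, 2 VSMC held none, 6 held 1, 40 held 2, 50 held 3 and 42 held all 4. At least 3 were held by 92 VSMC, which were 61.3%, 63.2% and 69.0% of the VSMC of libraries 1, 2 and 3. In the other 48, Kcnj8 and Abcc9 were both at 0. The genes of the VSMC rule ran the other way, given here as a description. Median Acta2 was 58 corrected counts in VSMC with up to 2 pericyte markers, 28 with 3 and 15.5 with 4, and median Tagln was 20, 9.5 and 5. Median Rgs5 was 110, 124 and 133 in the same order. In library 1 the medians of Acta2 were 29.5, 41.5 and 16, so the order did not hold in each library. The 2 cells with no pericyte marker, both in library 1, were also the 2 VSMC with Rgs5 at 0, and had 3 and 4 corrected counts of Acta2.

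**Figure D3:**
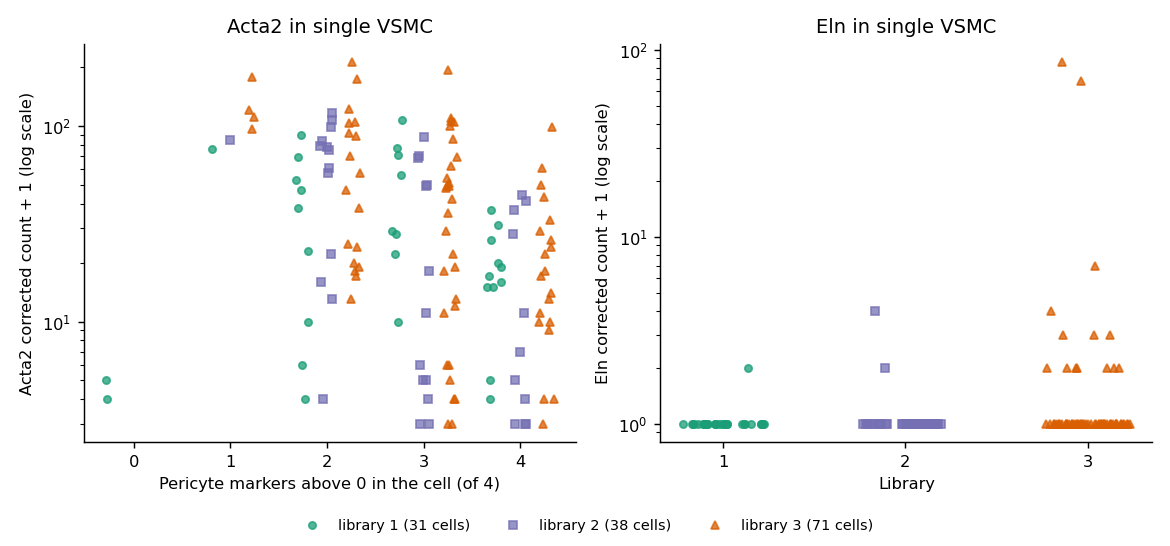
Corrected counts + 1 (log axes) in the 140 single VSMC, by library. Left, Acta2 against the number of the 4 pericyte markers above 0; right, Eln by library, with 2 cells of library 3 far above the rest.

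The 92 VSMC with at least 3 pericyte markers were compared with the 48 that had fewer, over genes that neither split nor rule had used. Of 9082 genes tested by limma with Benjamini-Hochberg adjustment, 49 were higher in those with at least 3 (0.54%) and 12 lower (0.132%). The fit also held the pericytes, and 14 genes were called when it held only the VSMC. Of 26 tested mural genes outside the rule, 6 were higher and none was lower. Genes expressed together with the pericyte markers may differ through the split itself, so this count is no independent support for it. Atp13a5 had 255, 363 and 235 CPM in VSMC with at least 3 pericyte markers, against 68.1, 20.8 and 68.5 CPM in those with fewer (log2 fold 2.34 ± 0.30 SE, limma adjusted p = 0.00563). Cox4i2, a lung and vascular subunit of cytochrome oxidase, had 973, 924 and 717 CPM in VSMC with at least 3, against 298, 516 and 360 CPM in those with fewer (log2 fold 1.16, limma adjusted p = 0.0102). The largest difference over all genes was that of Cthrc1, a secreted collagen triple helix protein, with 332, 333 and 251 CPM in VSMC with at least 3, against 30.5, 21.0 and 39.7 CPM in those with fewer (log2 fold 2.98 ± 0.21 SE, limma adjusted p = 2.7e-05). Sod3, the extracellular superoxide dismutase, had 296.4, 398 and 262 CPM in VSMC with at least 3, against 38.9, 42.7 and 55.6 CPM in those with fewer (log2 fold 2.55 ± 0.19 SE, limma adjusted p = 3.5e-05). Cthrc1 and Sod3 were the 2 genes called without any 1 library.

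Of 27 contractile genes tested in this split, 1 was lower in VSMC with at least 3 pericyte markers and none was higher, with a median log2 fold of -0.41. An unadjusted limma p under 0.05 was found for 1 in the higher and 9 in the lower direction. All 30 listed genes summed to 25624, 23612 and 25399 CPM with at least 3 pericyte markers, against 20646, 30050 and 34127 CPM with fewer. Library 1 thus went the other way for this list. The called gene was Mustn1, a small muscle nuclear protein, with 85.8, 45.0 and 174 CPM in VSMC with at least 3, against 237, 298 and 331 CPM in those with fewer (log2 fold -1.58 ± 0.30 SE, limma adjusted p = 0.0377). Crip1 had 4251, 3565 and 4289 CPM in VSMC with at least 3, against 4125, 5929 and 7023 CPM in those with fewer, and did not pass (limma adjusted p = 0.181). The receptor genes Tbxa2r and P2ry14 were higher by log2 folds of 1.15 and 1.04. The cell cycle genes Ccnb2 and Cenpf were lower by log2 folds of -2.42 and -1.59, and with all 3 smooth muscle markers required their log2 folds were 0.19 and 1.27. The cell cycle list summed to 3106, 973 and 1209 CPM in VSMC with at least 3 pericyte markers, against 890, 2836 and 2272 CPM in those with fewer, so library 1 went the other way. Leaving out a library gave 41 called genes without library 1, 2 without library 2 and 2 without library 3. With VSMC required to have all 3 smooth muscle markers, limma called 0 of 8983 genes (963 had an unadjusted p under 0.05).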

How the data were processed

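Single cells of 3 libraries were profiled by droplet sequencing (10x Genomics Chromium), per the labels' protocols. CASAVA 1.8, Cell Ranger, Seurat and the mm10 build are named in the submitters' processing notes. The deposited values are on a natural log scale, and all 34958786 values above 0 became whole numbers, within 1e-06, when the log of 1 plus the value was undone. They are called corrected counts, since cell totals span a narrow range; how the authors corrected depth is not given in the sources used here, so no count model was used.

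Corrected counts were scaled to 1e6 per cell (CPM) and averaged per cell type and library. The log2(CPM + 10) means of 4 cell types in 3 libraries were tested with limma 3.58.1 (trend, library as block; R 4.3.3) for 9428 genes averaging at least 10 CPM, with Benjamini-Hochberg adjustment over all of them. The libraries pair the cell types, because each library gave cells of every type. The split of VSMC had a fit of its own with the same settings, which held both parts of the VSMC and the pericytes. The pericytes thus entered its estimate of the spread and its minimum level. Scripts were tested on simulated data. Doublets were called with Scrublet in scanpy 1.11.5 and kept. Genes were named as the 3 called genes of largest fold per list and the 10 highest and 5 lowest over all genes, with the same sign in every library. Other list genes are given with values. The cells and lists were chosen with earlier results of these data known. Some genes and 1 list are not reported here.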

Additional observations from a re-analysis of the deposited data

How the results depend on the processing

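The count of genes called between VSMC and pericytes was 732, and 1329 with only those cell types in the fit, 214 to 564 with a library left out, 782 without the replicate block and 628 with pericytes held to the VSMC exclusions, an alternative chosen after seeing the data. Averaging natural log values gave 710 higher and 211 lower. Centring on the median gene gave 257 higher and 534 lower, against 310 and 422. For fibroblasts the count was 2803, and 1635 with only those cell types and 2002 to 2236 with a library left out. For endothelial cells it was 3755, and 2805 to 2967 with a library left out; centring gave 1638 higher and 1872 lower, against 2270 and 1485. The split of VSMC gave 61, and 21 with a pseudocount of 1 CPM, 2 with no minimum level, 39 with centring, 14 with only the compared cells, 0 with all 3 markers required (963 with an unadjusted p under 0.05 in limma), 21 with no excluded marker above 0, 2 to 41 with a library left out and 53 without the replicate block. The log2 fold of Edn1 against pericytes reversed to 0.20 under the exclusions, and in the split those of Ccnb2 and Cenpf reversed to 0.19 and 1.27 with all 3 markers required; the cause was not tested. The share of VSMC was 1.02%, and 0.494% with all 3 markers required and 0.695% to 1.20% with a library left out. The 31, 38 and 71 VSMC per library limit the precision of low genes, and with 1 exposed group no effect of sevoflurane can be read.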
